A study of Mus musculus with 9 samples.

Results

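A set of 9 genes known from the fetal liver and from liver tumours were followed across diabetic fatty liver and its treatment with a lipase inhibitor. The members, Afp, Gpc3, Cd63, Cd24a, Ly6d, Krt23, Ccnd1, Sox9 and Tff3, were chosen by name from the 55401 genes of the deposited count table, and each matched 1 row. That choice was made with earlier results of these data known. RNA came from the left liver lobe of male mice and was read from its 3' ends with the QuantSeq kit, 3 liver samples in each of 3 groups. Chow mice (replicates 7 to 9) ate chow diet and received neither streptozotocin nor Atglistatin. STAM mice (replicates 1 to 3) received 200 µg of streptozotocin under the skin at 2 days of age, which damages insulin-producing cells, and from 4 weeks of age ate a high-fat diet for 4 weeks. STAM + Atglistatin mice (replicates 4 to 6) had the same injection and diet, with Atglistatin, an inhibitor of the triglyceride lipase ATGL, in the diet. Streptozotocin and the high-fat diet always came together here, so their parts in a difference from chow cannot be told apart.

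The fetal liver makes alpha-fetoprotein and other proteins that are largely shut off after birth, and some of these genes are expressed again in regenerating liver, in injured liver and in hepatocellular carcinoma. Afp and Gpc3 are the usual examples of such oncofetal genes. Krt23, Sox9 and Tff3 are epithelial genes linked to bile ducts, progenitor cells or injured epithelium, Cd63, Cd24a and Ly6d encode surface or vesicle membrane proteins, and Ccnd1 encodes cyclin D1, which drives cells from the G1 phase of the cycle toward DNA synthesis. Most of them are also expressed outside hepatocytes. In RNA of whole tissue, a change in the number of cells of a type and a change in RNA per cell cannot be told apart.

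Library totals were 7.38 to 9.89 in units of 1e6 counts, and the count filter left 12660 genes for testing, all 9 members among them. Levels are given as CPM, counts divided by the TMM-scaled library size and multiplied by a constant, with mean ± SD of n = 3 samples. Differences are log2 fold changes ± SE by edgeR's quasi-likelihood test, and adjusted p-values (Benjamini-Hochberg) cover every tested gene. The SE was derived from that test's F statistic, as the absolute log2 fold change divided by the square root of F. The 11 hepatocyte markers present had a summed level of 94920 to 108200 CPM in chow, 54490 to 62140 in STAM and 76120 to 76150 in STAM + Atglistatin. Alb was the largest part of that sum. Of 10 markers of pancreas, gut and gallbladder, 6 (Prss1, Ins1, Ins2, Muc5b, Muc6 and Cdx2) had 0 counts in every library. Cpa1 of that list had at most 6 counts in a library, while Cela1 read 16.5 to 48.8 CPM. The source of the Cela1 reads was not tested. Chow replicate 7 was unlike replicates 8 and 9. Its counts differed from those of replicates 8 and 9 with a chi-square of 21.1 and 21.2 per degree of freedom, against 9.23 between replicates 8 and 9. Summed proliferation markers stood at 235 CPM in it against 59.1 and 73.7, with 22 of 23 markers highest in it among the chow libraries (36.0% of all tested genes were highest in it, and 7 of the 9 members), and stellate cell and fibroblast markers at 857 CPM against 486 and 518. The members' comparisons with chow are therefore given with and without this library. For some of the other genes named, calls or values that changed without this library are also given. Its part in the differences was not tested beyond that.

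STAM against chow asked how the genes stood in the diabetic, high-fat-fed liver. Of the 9 members, Krt23 and Cd63 passed the test, both higher in STAM, and none passed as lower. Krt23 was 6.75-fold and Cd63 2.28-fold higher. Of all tested genes, 3.94% passed in this comparison (499 genes), 1.95% as higher and 1.99% as lower. Leaving out STAM replicate 1 or 2 gave 291 or 312 genes, and library totals in place of TMM gave 347 higher and 205 lower against 247 and 252. The median log2 fold change was 1.19 for the members and -0.0014 for all tested genes. Because the members were chosen with earlier results of these data known, this median and those below are descriptions only. The 3 STAM libraries lay wholly above the 3 chow libraries for Afp, Gpc3, Ly6d and Krt23 and wholly below them for Ccnd1, and such separation was seen for 20.7% of all tested genes, 10.6% upward and 10.2% downward. Without chow replicate 7, Ly6d, Cd63 and Krt23 were higher and none was lower, where 5.54% of tested genes passed (724 genes), 2.68% as higher and 2.86% as lower.

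STAM + Atglistatin against STAM compared the diseased liver with and without the inhibitor. Ccnd1 was 2.49-fold higher with Atglistatin and Krt23 was 2.35-fold lower, and the other 7 members did not pass. These were also the only 2 members whose libraries did not overlap between the groups. Of all tested genes, 1.79% passed (226 genes), 1.04% as higher and 0.742% as lower, and 17.0% showed libraries that did not overlap, 8.58% upward and 8.45% downward. Leaving out a library gave 131 (STAM replicate 1), 134 (STAM replicate 2), 147 (treated replicate 4) or 139 (treated replicate 5) genes. The same 2 members passed without chow replicate 7, where 2.54% of tested genes did. The members' median log2 fold change was -0.27, against -0.0007 for all tested genes.

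STAM + Atglistatin against chow found 1 member, Krt23, 2.87-fold higher, where 4.08% of all tested genes passed (516 genes), 2.1% as higher and 1.97% as lower. The count was 322 or 316 with chow replicate 8 or 9 left out and 312 or 309 with treated replicate 4 or 5 left out, and library totals gave 359 higher and 184 lower against 266 and 250. Afp and Krt23 were the members whose treated libraries lay wholly above chow, a pattern found for 9.6% of tested genes, against 9.03% in the other direction and 18.6% in all. Members had a median log2 fold change of 0.83, against -0.0041 for all tested genes. Without chow replicate 7, Ly6d, Cd63, Krt23 and Ccnd1 were higher and none was lower, where 5.79% of tested genes passed (757 genes), 2.88% as higher and 2.91% as lower. The 3 comparisons share their groups of libraries, so they are not independent of each other.

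**Figure D1:**
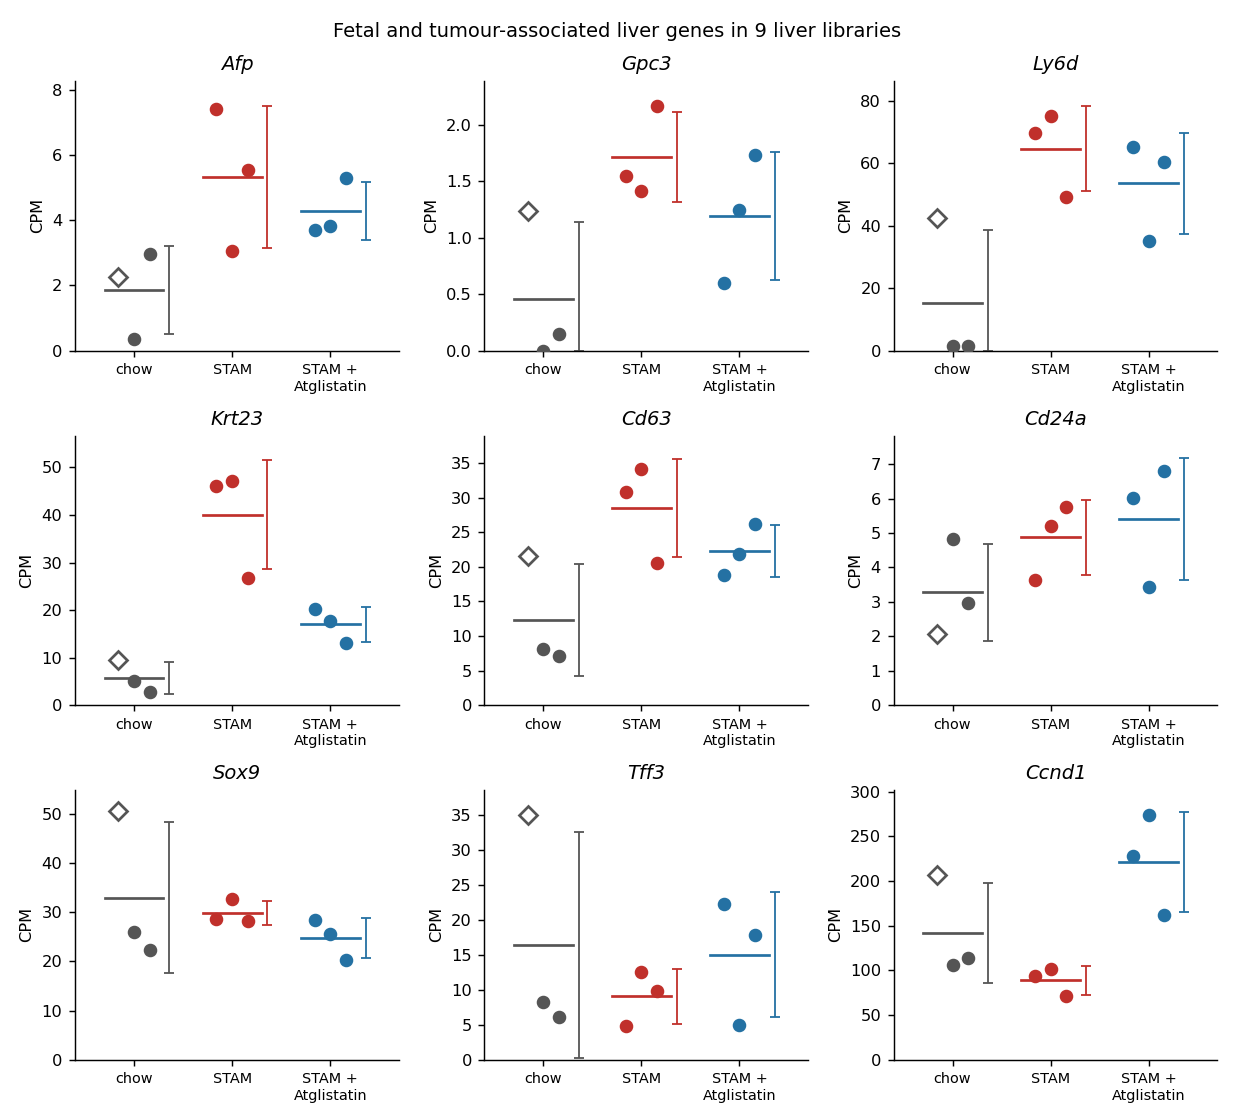
CPM of each of the 9 genes (vertical axes, linear, each gene with its own scale) in every liver library of the 3 groups; horizontal lines are group means, bars are SD of n = 3 and end at 0 where the SD exceeds the mean, and the open diamond is chow replicate 7. Krt23 was highest in the 3 STAM libraries (26.8 to 47.2 CPM), Ccnd1 was highest on average with Atglistatin (222 CPM), and chow replicate 7 was the highest chow library for 7 of the genes.

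**Figure D2:**
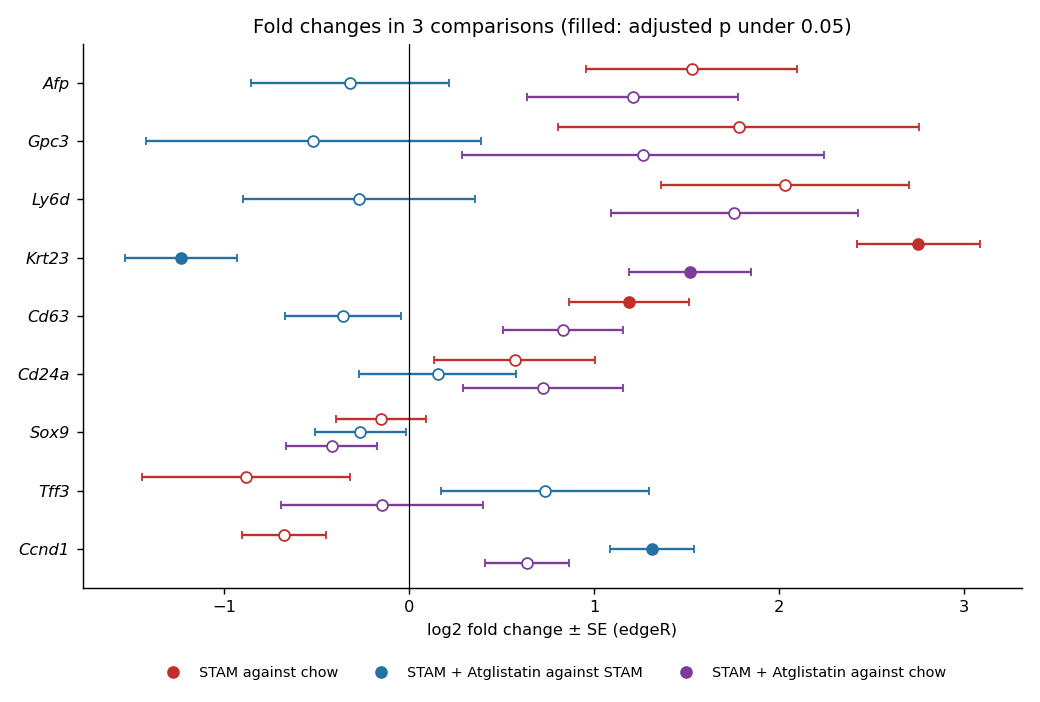
Log2 fold changes ± SE of the 9 genes in the 3 comparisons (edgeR, all 9 libraries in 1 fit); filled circles passed at an adjusted p under 0.05. The filled points are Krt23 in all 3 comparisons, Cd63 in STAM against chow and Ccnd1 in STAM + Atglistatin against STAM.

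Afp encodes alpha-fetoprotein, the main plasma protein of the fetus and a serum marker of hepatocellular carcinoma. The gene lies on chromosome 5 of GRCm38 (90490737 to 90508907, plus strand), between its relatives Alb (90460897 to 90476602) and Afm (90518932 to 90553543). Its RefSeq promoter on GRCm38.p6, chr5:90490464-90490713 on the plus strand, is shown because the gene's silencing after birth is known to act through its upstream region, with matches to 3 motifs in capitals.

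Afp: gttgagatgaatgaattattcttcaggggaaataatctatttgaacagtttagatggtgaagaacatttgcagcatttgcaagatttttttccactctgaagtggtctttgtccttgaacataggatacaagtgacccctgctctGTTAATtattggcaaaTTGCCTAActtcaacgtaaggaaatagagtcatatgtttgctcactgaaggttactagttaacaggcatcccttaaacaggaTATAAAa

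The capitals mark GTTAAT (an HNF1 half-site, 105 bases before the RefSeq start), TTGCNNAA (a C/EBP motif, 89 bases before it) and TATAAA (the core promoter box, 7 bases before it). The GENCODE start lies 23 bases further on, so that box lies 30 bases before it. Searched on both strands, these motifs occur in 6.43%, 9.56% and 12.4% of 32851 promoters of the same length. The motifs were picked with these sequences in view, and a match is a description of letters only.

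Afp read 2.26, 0.362 and 2.96 CPM in chow replicates 7, 8 and 9, from 22, 3 and 20 counts. In STAM replicates 1, 2 and 3 it read 7.41, 3.07 and 5.53 CPM, and in STAM + Atglistatin replicates 4, 5 and 6 it read 3.71, 3.83 and 5.30 CPM. All 6 STAM and treated libraries lay above all 3 chow libraries, and chow replicate 8 was over 3 times below the next chow library, a gap seen for 1.52% of tested genes in that library. Group means were 1.86 ± 1.34, 5.34 ± 2.18 and 4.28 ± 0.882 CPM. The difference did not pass the test in STAM (1.53 ± 0.57, edgeR adjusted p = 0.187, unadjusted 0.0156) or with Atglistatin (1.21 ± 0.57, edgeR adjusted p = 0.333), and it passed under none of the 15 alternatives of the analysis in either comparison with chow. Treated against untreated STAM gave -0.32 ± 0.53 (edgeR adjusted p = 0.919). On the other strand, Afp overlaps Gm43449, with 267 counts over the 9 libraries against 307 for Afp. How the counting used strand is not given in the sources used here, so reads of the pair cannot be told apart. Gm43449 did not follow Afp across groups, with 28 to 45 counts per library in chow, 24 to 35 in STAM and 11 to 42 with Atglistatin.

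The called relatives of Afp were lower than in chow. Alb, the albumin gene, stood at 60370 ± 3647 CPM in chow, 29480 ± 2539 in STAM and 45730 ± 673 with Atglistatin. It fell in STAM against chow (-1.03 ± 0.10, edgeR adjusted p = 5.26e-06) and rose with Atglistatin against STAM (0.63 ± 0.10, edgeR adjusted p = 0.00159). Afm, which encodes the vitamin E carrier afamin, fell in STAM (-0.86 ± 0.12, edgeR adjusted p = 0.000219) and was also lower than chow with Atglistatin (-0.61 ± 0.12, edgeR adjusted p = 0.00493). Of the 4 albumin family genes, these were the 2 called in STAM against chow.

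Afp is held down in adult liver by the repressors Zhx2 and Zbtb20. Zhx2 averaged 5.86, 8.83 and 6.26 CPM in chow, STAM and STAM + Atglistatin, and Zbtb20 averaged 657, 629 and 545 CPM. Neither passed in any comparison. In a list of 17 regulators of fetal liver genes, all tested, 0 rose and 1, Foxa3, fell in STAM against chow (-0.48 ± 0.12, edgeR adjusted p = 0.0342) and in STAM + Atglistatin against chow (-0.58 ± 0.12, edgeR adjusted p = 0.00939). Foxa3 is a forkhead factor of hepatocyte identity. Its first call was lost when chow replicate 8 or 9 or any STAM replicate was left out (edgeR adjusted p 0.065 to 0.21), and its second without chow replicate 8 (0.0581). Between treated and untreated STAM, edgeR called none of the 17, with 1 at an unadjusted p under 0.05 and 0 by DESeq2 or limma-voom. The list medians were -0.06, -0.12 and -0.09 in these 3 comparisons in the order given. Foxa2 was also called higher in treated STAM against chow when chow replicate 7 was left out (0.65 ± 0.18, edgeR adjusted p = 0.0293).

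Gpc3, glypican-3, is a heparan sulphate proteoglycan of the cell surface and a tissue marker of hepatocellular carcinoma. The gene spans chromosome X (52272426 to 52613950, minus strand). Counts were very low, at 12, 0 and 1 in the chow libraries, 14, 12 and 18 in STAM and 6, 12 and 16 with Atglistatin. In CPM that is 1.24, 0 and 0.148, then 1.55, 1.42 and 2.16, then 0.602, 1.24 and 1.73. The 3 STAM libraries lay above every chow library, and in chow the gene rested almost entirely on replicate 7. No comparison passed: 1.78 ± 0.98 in STAM against chow (edgeR adjusted p = 0.43), 1.27 ± 0.98 in treated STAM against chow (0.624) and -0.52 ± 0.91 in treated against untreated STAM (0.922). Leaving out replicate 7, 44 counts in STAM stood against 1 in the 2 remaining chow libraries, a depth-scaled ratio of 25.7 (95% exact interval 4.37 to 1036), and the 34 treated counts gave 17.7 (2.98 to 721). These intervals cover counting error only, and the test without that library did not pass either (edgeR adjusted p = 0.0744 and 0.127). Gpc3 exceeded the count filter in 1 chow, 3 STAM and 2 treated libraries, so it was tested through the groups where it was higher.

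Its relative Gpc1, another glypican, was called against chow under all 15 alternatives. Gpc1 read 20.6, 12.5 and 12.3 CPM in chow, 48.7, 41.8 and 57.4 in STAM, and 32.2, 29.01 and 30.2 with Atglistatin, 3 groups that did not overlap. It rose in STAM (1.69 ± 0.21, edgeR adjusted p = 5.33e-05) and in treated STAM against chow (0.999 ± 0.20, edgeR adjusted p = 0.00732). Of 8 glypicans and syndecans tested it alone was called in STAM. In treated STAM against chow the syndecan Sdc4 also fell (-0.59 ± 0.14, edgeR adjusted p = 0.025), and that call did not hold when chow replicate 8 or 9 or any treated replicate was left out (0.0701 to 0.177). Between treated and untreated STAM edgeR called 0 of the 8, with 3 at an unadjusted p under 0.05, and DESeq2 and limma-voom called 2 each. Leaving out chow replicate 7, edgeR called Gpc1 and Sdc4 as lower in this comparison (edgeR adjusted p = 0.0195 and 0.0139, against 0.105 and 0.122 with it). Chow enters this comparison only through the joint fit, and the log2 fold changes hardly moved (-0.694 to -0.696 and -0.496 to -0.498). The syndecan Sdc2 was then called lower in STAM (0.00231) and in treated STAM (0.00341) against chow.

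Among other fetal liver genes, H19 and Meg3 were called higher in STAM than in chow. Of 25 fetal and oncofetal genes, 16 were tested, the members Afp, Gpc3 and Cd24a among them. In STAM against chow 2 rose and 0 fell, with a list median of 0.55. H19, a long noncoding RNA abundant in fetal liver, had 13, 0 and 0 counts in chow, 79, 68 and 121 in STAM and 200, 114 and 154 with Atglistatin. It rose in STAM (4.32 ± 0.63, edgeR adjusted p = 0.000354) and in treated STAM (4.96 ± 0.62, edgeR adjusted p = 7.36e-05) against chow. All 13 chow counts of H19 were in replicate 7. The other 2 chow libraries were set at the floor of 3 counts over both. Against that floor, H19 was at least 52.1-fold higher in STAM and at least 81.4-fold higher in treated STAM. These bounds allow for counting error in those 2 libraries only and are not bounds for the chow group. With replicate 7 included the differences were smaller, at the log2 values of 4.32 and 4.96 given above. Both calls held without replicate 7 (edgeR adjusted p = 5.64e-07 and 8.94e-08). In that fit H19 had no counts in chow, so it was tested through the groups where it was higher. Meg3, a noncoding RNA of the Dlk1 locus, read 2.26, 0.12 and 1.18 CPM in chow, 28.3, 11.7 and 21.5 in STAM, and 2.81, 4.87 and 3.68 with Atglistatin. It rose in STAM (4.05 ± 0.53, edgeR adjusted p = 0.000104) and fell with Atglistatin (-2.43 ± 0.46, edgeR adjusted p = 0.00585), a fall no longer called without STAM replicate 1 (0.0907) or treated replicate 4 (0.0525). In treated STAM against chow Meg3 did not pass (1.62 ± 0.54, edgeR adjusted p = 0.129), and without chow replicate 7 it did (2.61 ± 0.62, edgeR adjusted p = 0.0117). Meg3 was the 1 gene of the list called between treated and untreated STAM (median 0.12), and H19 the 1 called in treated STAM against chow (median 0.63). On chow replicates 8 and 9 alone, the list gave 5 higher genes in STAM and 4 in treated STAM against chow, and 0 lower in both. Of all tested genes, 2.68% and 2.88% were then called higher. The added genes of the list were Igf2bp3, Spink1 and Lpl in STAM, and Igf2bp3, Spink1 and Meg3 in treated STAM.

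Krt23 is a type I keratin, an intermediate filament protein of epithelia that is scarce in healthy liver. Its place is chromosome 11 (99477974 to 99493137, minus strand). Its promoter, chr11:99493121-99493370 on the minus strand (RefSeq, GRCm38.p6), is shown because Krt23 was the member that changed in all 3 comparisons.

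Krt23: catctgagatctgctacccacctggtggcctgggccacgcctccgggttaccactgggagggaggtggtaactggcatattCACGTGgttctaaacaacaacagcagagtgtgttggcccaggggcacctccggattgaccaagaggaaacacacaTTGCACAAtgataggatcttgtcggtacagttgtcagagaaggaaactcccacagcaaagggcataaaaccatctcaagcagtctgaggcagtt

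The capitals mark CACGTG (an E-box, 169 bases before the RefSeq start), found in 6.02% of the 32851 promoters, and TTGCNNAA (94 bases before it), both searched on both strands. GTTAAT and TATAAA were not found in these 250 bases. RefSeq promoters were matched for 4 members, the others being Gpc3 and Cd63.

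Krt23 read 9.47, 5.06 and 2.81 CPM in chow replicates 7, 8 and 9. In STAM replicates 1, 2 and 3 it read 46.1, 47.2 and 26.8 CPM, and with Atglistatin, in replicates 4, 5 and 6, 20.3, 17.7 and 13.1 CPM. The 3 groups did not overlap in any pair, with treated STAM between chow and STAM. Means were 5.78 ± 3.39, 40.1 ± 11.5 and 17.0 ± 3.64 CPM. The rise in STAM was 2.75 ± 0.33 on the log2 scale (edgeR adjusted p = 4.9e-05) and passed under all 15 alternatives. Krt23 fell with Atglistatin against STAM (-1.23 ± 0.30, edgeR adjusted p = 0.0442), and it was still higher in treated STAM than in chow (1.52 ± 0.33, edgeR adjusted p = 0.0118).

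The fall with Atglistatin was a call close to the threshold. It was lost when STAM replicate 1 (edgeR adjusted p = 0.247) or 2 (0.234) or treated replicate 4 (0.0929), 5 (0.161) or 6 (0.17) was left out, and when library totals replaced TMM (0.0683), at log2 fold changes of -1.45 to -1.08 over all alternatives. It was called without chow replicate 7 (edgeR adjusted p = 0.00317). Treated STAM against chow lost its call without chow replicate 8 (0.0575) or treated replicate 4 (0.0675) or 5 (0.051), and without chow replicate 7 it was 2.09 ± 0.32 (edgeR adjusted p = 0.000203). STAM against chow without replicate 7 was 3.32 ± 0.33 (edgeR adjusted p = 5.42e-07). The authors' deposited table gave Krt23 a log2 fold change of -2.09 for chow against STAM (adjusted p = 3.59e-14) and -0.98 for treated against untreated STAM (adjusted p = 0.00533). Those values are smaller in size than the edgeR values above, and no tool is named for them.

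With all libraries, other keratins of simple epithelia did not pass. Krt8 and Krt18, the keratin pair of hepatocytes, averaged 97.8 and 225 CPM in chow, 90.2 and 284 in STAM and 86.0 and 230 with Atglistatin. Krt18 was called higher in STAM against chow once chow replicate 7 was left out (0.72 ± 0.16, edgeR adjusted p = 0.0055). Krt19, the classical bile duct keratin, read 2.47, 0.964 and 1.92 CPM in chow, 2.10, 0.472 and 1.202 in STAM and 5.72, 3.21 and 3.03 with Atglistatin, a range that overlapped between chow and STAM and did not overlap between treated STAM and the others. Its difference in treated against untreated STAM was 1.65 ± 0.64 and did not pass (edgeR adjusted p = 0.325). Krt23 was the 1 keratin of 5 tested, and the 1 gene of 18 tested in the biliary and progenitor list, that passed in each of the 3 comparisons with all libraries. Sox4 of that list, without chow replicate 7, was also called higher against chow in STAM (1.53 ± 0.31, edgeR adjusted p = 0.00365) and in treated STAM (1.49 ± 0.31, edgeR adjusted p = 0.0043). The biliary and progenitor list holds the members Krt23, Sox9, Tff3 and Cd24a. Its medians were -0.06 in STAM against chow, 0.15 in treated against untreated STAM and 0.30 in treated STAM against chow.

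Sox9 is a transcription factor of bile ducts and liver progenitors that is also expressed in stellate cells. Its locus is chromosome 11 (112782224 to 112787760, plus strand). It read 50.5, 25.9 and 22.3 CPM in chow, 28.6, 32.6 and 28.1 in STAM, and 28.4, 25.6 and 20.3 with Atglistatin. Apart from chow replicate 7, the 8 libraries lay between 20.3 and 32.6 CPM. No comparison passed, at -0.15 ± 0.25 in STAM against chow (edgeR adjusted p = 0.863), -0.26 ± 0.25 in treated against untreated STAM (0.82) and -0.42 ± 0.25 in treated STAM against chow (0.473). The sign of both values against chow turned without chow replicate 7, to 0.30 ± 0.21 (edgeR adjusted p = 0.512) and 0.04 ± 0.20 (0.958). The stellate and fibroblast markers were highest in that same chow library (857 CPM), as were 6 of 12 cholangiocyte markers, Sox9 among them. Cholangiocyte markers summed to 55.1 to 85.0 CPM in chow, 66.2 to 73.0 in STAM and 66.3 to 75.8 with Atglistatin. Without Sox9 they summed to 34.5, 32.7 and 32.8 CPM in chow, 36.4 to 44.3 in STAM and 40.7 to 55.5 with Atglistatin. Spp1 was the largest part of the sum without Sox9 in every library. It read 12.87 to 15.66 CPM in chow, 16.58 to 24.99 in STAM and 19.36 to 31.57 with Atglistatin. Whether the separation from chow holds without Spp1 was not tested. Median log2 fold changes of the 8 tested were -0.0984 in STAM and 0.5046 in treated STAM against chow, and 0.0502 in treated against untreated STAM. edgeR called 0 of the 8 tested cholangiocyte markers in each comparison, with 1 each at an unadjusted p under 0.05, and DESeq2 and limma-voom called 0.

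Genes of the NOTCH pathway and targets of YAP and TEAD, as pathways that act on Sox9, were read beside it. The NOTCH list also holds Sox9. Its medians were -0.16 in STAM against chow, -0.12 in treated against untreated STAM and -0.43 in treated STAM against chow. Of all tested genes, 3.94%, 1.79% and 4.08% were called in those comparisons. Of 12 NOTCH pathway genes tested, edgeR called 1 in STAM against chow, the transcription factor gene Hes6, which fell from 205 ± 58.3 to 113 ± 6.12 CPM (-0.87 ± 0.17, edgeR adjusted p = 0.00522). It called 0 in treated against untreated STAM, with 0 at an unadjusted p under 0.05 and by the other tools, and 0 in treated STAM against chow, with 1 at an unadjusted p under 0.05 and 1 each by DESeq2 and limma-voom. Hes6, without chow replicate 7, was also called lower in treated STAM against chow (-0.78 ± 0.13, edgeR adjusted p = 0.000352, against 0.084 with it). Of 15 targets of YAP and TEAD, which sense cell contact and growth, edgeR, DESeq2 and limma-voom called 0 in each comparison, with 0, 0 and 2 at an unadjusted p under 0.05. Their medians were -0.07, -0.06 and -0.08.

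Tff3, trefoil factor 3, is a small secreted peptide of mucous epithelia. It lies on chromosome 17 (31125306 to 31129646, minus strand). It read 35.0, 8.20 and 6.06 CPM in chow, 4.75, 12.5 and 9.85 in STAM, and 22.3, 4.97 and 17.8 with Atglistatin. Single libraries set its means of 16.4 ± 16.1, 9.04 ± 3.94 and 15.0 ± 8.99 CPM: chow replicate 7 was over 3 times the next chow library, and treated replicate 5 over 3 times below the next treated one. Such gaps were seen for 2.27% and 1.3% of tested genes in those libraries. No comparison passed, with -0.88 ± 0.56 in STAM against chow (edgeR adjusted p = 0.531), 0.74 ± 0.56 in treated against untreated STAM (0.761) and -0.15 ± 0.54 in treated STAM against chow (0.944). Leaving out chow replicate 7, the values against chow were 0.33 ± 0.47 (edgeR adjusted p = 0.807) and 1.07 ± 0.47 (0.229), and without treated replicate 5 treated STAM against chow was 0.27. Of the trefoil factors, Tff3 was the 1 of 3 with enough counts to be tested.

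Ly6d belongs to the Ly6 family of small proteins anchored in the cell membrane by a lipid, and is known as a marker of B cell precursors and of some epithelia. It lies on chromosome 15 (74762056 to 74763620, minus strand). It read 42.4, 1.69 and 1.63 CPM in chow replicates 7, 8 and 9, from 412, 14 and 11 counts. In STAM it read 69.6, 75.1 and 49.3 CPM, and with Atglistatin 65.2, 35.1 and 60.2. Chow replicate 7 had 25.6 times the mean of the other 2 chow libraries and fell within the range of the treated libraries. With it, means were 15.2 ± 23.5, 64.6 ± 13.6 and 53.5 ± 16.1 CPM, and neither STAM (2.03 ± 0.67, edgeR adjusted p = 0.12) nor treated STAM (1.76 ± 0.67, edgeR adjusted p = 0.197) passed against chow. Without it, Ly6d was higher by 5.27 ± 0.34 in STAM (edgeR adjusted p = 9.48e-10) and by 4.998 ± 0.34 in treated STAM (edgeR adjusted p = 1.23e-09). The ratios of depth-scaled counts were then 39.1 (95% exact interval 26.4 to 60.6) and 32.3 (21.8 to 50.03), for counting error only.

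Of the alternatives, 3 called Ly6d in both comparisons with chow. Besides the fit without chow replicate 7, the fit with no count filter called it with all 9 libraries (2.04, edgeR adjusted p = 7.98e-26 in STAM; 1.76, edgeR adjusted p = 2.12e-19 in treated STAM), and the size of those p-values is not read as strength. Likewise limma-voom with sample weights, which gives deviating libraries less weight, called it with all 9 libraries (4.17, limma adjusted p = 0.000233 in STAM; 3.78, limma adjusted p = 0.00101 in treated STAM). Both DESeq2 here and the authors' deposited table list its adjusted p as NA. Treated against untreated STAM gave -0.27 ± 0.63 (edgeR adjusted p = 0.944), and -0.27 ± 0.20 (0.689) without chow replicate 7. Summed B cell markers stood at 104 CPM in chow replicate 7, with a mean of 71.5 in the other chow libraries, 68.1 to 70.4 in STAM and 59.4 to 87.9 with Atglistatin. That sum showed no step between chow replicates 8 and 9 and the STAM libraries, but it was mostly Cd74 (53.0 of 69.7 CPM in chow replicate 8). Single B cell markers did show steps, in both directions. Vpreb3, which encodes a part of the B cell precursor receptor complex, had 0, 0 and 1 counts in chow, 3, 6 and 15 in STAM and 19, 31 and 16 with Atglistatin. It rose in treated STAM against chow (5.37 ± 1.21, edgeR adjusted p = 0.0146; lost without chow replicate 8, 0.0856, or treated replicate 5, 0.0783, and with limma-voom, 0.0505) and did not pass in STAM against chow (4.10 ± 1.25, edgeR adjusted p = 0.0846). Vpreb3 exceeded the count filter in every treated library and in no chow library, so it was tested through the group where it was highest. The 66 treated counts stood against 1 in chow, which scaled by depth is 56.7-fold (exact 95% bounds from counting alone 9.82 and 2271), and unlike Ly6d it had no counts in chow replicate 7. With that library left out, the call in treated STAM was close to the threshold (edgeR adjusted p = 0.0461). Igkc, the immunoglobulin kappa constant gene, read 2.68, 1.57 and 1.77 CPM in chow, 3.87, 4.49 and 4.45 in STAM, and 6.72, 4.04 and 4.76 with Atglistatin. Ighm, the mu heavy chain gene, ran the other way, at 9.47, 8.68 and 13.5 CPM in chow against 3.897 to 5.20 in STAM and 4.66 to 6.82 with Atglistatin. So did the B cell marker Cd79b, which edgeR did not call and which had 3 to 21 counts per library. It read 1.75, 2.53 and 1.92 CPM in chow, 0.774, 0.472 and 1.56 in STAM, and 0.803, 0.414 and 0.324 with Atglistatin. Cd79a had counts only in chow replicate 8. The part of B cells in the level of Ly6d was not tested.

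The rest of the Ly6 family gave 1 call. Of 14 Ly6 family genes 7 were tested, and edgeR called 0 in STAM against chow, with 3 at an unadjusted p under 0.05, 0 by DESeq2 and 2 by limma-voom. Ly6e averaged 333, 331 and 316 CPM in the 3 groups, and Ly6a 26.8, 39.4 and 36.9 CPM, without passing. Ly6a without chow replicate 7 was called higher in STAM against chow (0.69 ± 0.19, edgeR adjusted p = 0.0369). Gpihbp1, the anchor of lipoprotein lipase on capillaries, averaged 25.1, 25.5 and 26.9 CPM. Cd59a, an inhibitor of complement, rose in treated STAM against chow (0.49 ± 0.13, edgeR adjusted p = 0.0393), which leaving out chow replicate 7 or 9, any STAM replicate, or treated replicate 5 or 6 undid (0.0552 to 0.146). In treated against untreated STAM, 0 of the 7 were called by edgeR, DESeq2 or limma-voom, and 0 had an unadjusted p under 0.05.

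Cd63 is a tetraspanin, a membrane protein, of lysosomes and of vesicles released from cells. The locus is chromosome 10 (128900989 to 128912822, plus strand). It read 21.6, 8.20 and 7.09 CPM in chow, 30.7, 34.1 and 20.6 in STAM, and 18.8, 21.9 and 26.2 with Atglistatin. Chow replicate 7 lay above STAM replicate 3 and above treated replicate 4, so the groups overlapped through that library. Cd63 rose in STAM from 12.3 ± 8.09 to 28.5 ± 7.07 CPM (1.19 ± 0.32, edgeR adjusted p = 0.0474). The call passed under 6 of 15 alternatives and was lost without chow replicate 8 (0.2) or 9 (0.184), STAM replicate 1 (0.166) or 2 (0.197), or treated replicate 4 (0.0639), 5 (0.0756) or 6 (0.0521). Without chow replicate 7 it was 1.89 ± 0.27 (edgeR adjusted p = 6.38e-05).

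With Atglistatin, Cd63 averaged 22.3 ± 3.72 CPM. It did not pass against STAM (-0.36 ± 0.31, edgeR adjusted p = 0.807) or against chow (0.83 ± 0.32, edgeR adjusted p = 0.212), and without chow replicate 7 it was higher than chow (1.53 ± 0.27, edgeR adjusted p = 0.000648). Among 17 tetraspanins tested, Cd63 was the 1 called in STAM against chow, and Tspan4 the 1 called in treated STAM against chow (0.81 ± 0.18, edgeR adjusted p = 0.0164; lost without chow replicate 9, 0.0888, or treated replicate 6, 0.0879). On chow replicates 8 and 9 alone, Cd63 and Tspan4 were called higher and Tspan33 lower (-1.47 ± 0.43, edgeR adjusted p = 0.0473) in treated STAM against chow. In treated against untreated STAM edgeR, DESeq2 and limma-voom called 0 tetraspanins, with 1 at an unadjusted p under 0.05. Median log2 fold changes of the tetraspanins were -0.01, 0.06 and 0.07 in STAM against chow, treated against untreated STAM and treated STAM against chow.

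Cd24a encodes a heavily glycosylated surface protein found on progenitor cells, B cells and tumour cells. It lies on chromosome 10 (43578284 to 43584265, plus strand). It read 2.06, 4.82 and 2.96 CPM in chow, 3.65, 5.20 and 5.77 in STAM, and 6.02, 3.42 and 6.81 with Atglistatin. All groups overlapped, and it was the member that chow replicate 7 held at the lowest level relative to the other chow libraries (0.53 times their mean). Its differences were 0.57 ± 0.44 in STAM (edgeR adjusted p = 0.623), 0.73 ± 0.43 in treated STAM against chow (0.478) and 0.15 ± 0.42 in treated against untreated STAM (0.956). Without chow replicate 7 the values against chow were 0.31 ± 0.46 (edgeR adjusted p = 0.815) and 0.47 ± 0.45 (0.685). The value between treated and untreated STAM turned sign without STAM replicate 1 (-0.02) or treated replicate 6 (-0.04).

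**Figure D3:**
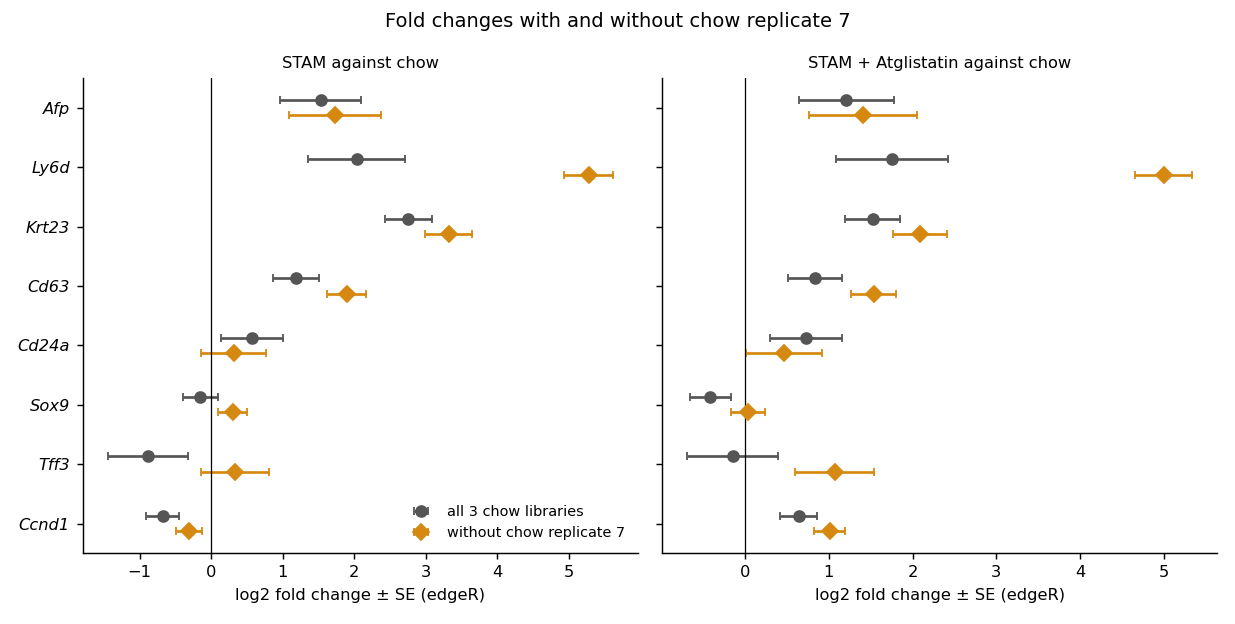
Log2 fold changes ± SE (edgeR) of 8 of the genes against chow, with all 3 chow libraries (grey circles) and without chow replicate 7 (orange diamonds), for STAM on the left and STAM + Atglistatin on the right; Gpc3 is left out because 1 count remained in chow. Ly6d moved most, from 2.03 to 5.27 in STAM, Sox9 and Tff3 changed sign, and Afp moved from 1.53 to 1.73.

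Ccnd1, cyclin D1, lies on chromosome 7 (144929931 to 144939925, minus strand). It read 206, 106 and 114 CPM in chow replicates 7, 8 and 9, and 94.0, 102 and 71.1 in STAM replicates 1, 2 and 3. With Atglistatin it read 228, 274 and 162 CPM in replicates 4, 5 and 6. Each treated library lay above each STAM library, and chow replicate 7 lay among the treated ones. Means were 142 ± 55.8, 89.1 ± 16.1 and 222 ± 55.9 CPM. The rise with Atglistatin against STAM was 1.31 ± 0.23 (edgeR adjusted p = 0.00298) and passed under all 15 alternatives, with a highest adjusted p of 0.0381. The authors' deposited table gave 0.99 for the same comparison (adjusted p = 0.00675).

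Against chow, Ccnd1 did not pass in STAM (-0.68 ± 0.23, edgeR adjusted p = 0.129) or in treated STAM (0.64 ± 0.23, edgeR adjusted p = 0.155). With chow reduced to replicates 8 and 9, STAM stood at -0.30 ± 0.18 (edgeR adjusted p = 0.432), and treated STAM was higher than chow by 1.01 ± 0.19 (edgeR adjusted p = 0.00125). On the other strand the gene overlaps LTO1, which had 626 counts over all libraries, 32 to 98 in each, against 12380 for Ccnd1. As for Afp, reads of the overlapping pair cannot be told apart.

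Cyclin D1 works with the kinases Cdk4 and Cdk6 and is opposed by the p21 inhibitor, the product of Cdkn1a and a target of p53. Cdkn1a read 50.4, 2.89 and 6.35 CPM in chow, 22.1, 20.4 and 30.04 in STAM, and 169, 154 and 140 with Atglistatin. It rose with Atglistatin against STAM (2.67 ± 0.56, edgeR adjusted p = 0.015) and against chow (2.92 ± 0.57, edgeR adjusted p = 0.00493), all treated libraries lying above the others. The first of these calls was lost without any single STAM replicate or treated replicate 4 or 5 (0.0508 to 0.121) and with DESeq2 (0.106). Like Ly6d and Ccnd1, Cdkn1a was highest among the chow libraries in replicate 7. Without that library its value in treated STAM against chow was 5.09 ± 0.27 (edgeR adjusted p = 2.87e-11). STAM against chow, which had not passed (0.24 ± 0.56, edgeR adjusted p = 0.916), was then 2.42 ± 0.26 (edgeR adjusted p = 2.15e-06).

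The other D-type cyclins did not follow Ccnd1. Ccnd2 averaged 69.5, 66.0 and 72.4 CPM and passed in no comparison. Ccnd3 read 36.7, 41.0 and 37.7 CPM in chow, 64.1, 58.0 and 52.5 in STAM, and 54.6, 56.9 and 50.4 with Atglistatin. It rose in STAM (0.60 ± 0.14, edgeR adjusted p = 0.019), which leaving out chow replicate 9 (0.0742) or STAM replicate 1 (0.128) or 2 (0.0699) undid. Of 19 G1 cyclins, kinases and inhibitors tested, Ccnd3 was the 1 called in STAM against chow, Ccnd1 and Cdkn1a the 2 called in treated against untreated STAM, and Cdkn1a the 1 called in treated STAM against chow, all higher. On chow replicates 8 and 9 alone, Cdkn1a joined Ccnd3 in STAM against chow, and Ccnd1 and Ccne2 (2.28 ± 0.61, edgeR adjusted p = 0.0267) joined Cdkn1a in treated STAM against chow.

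**Figure D4:**
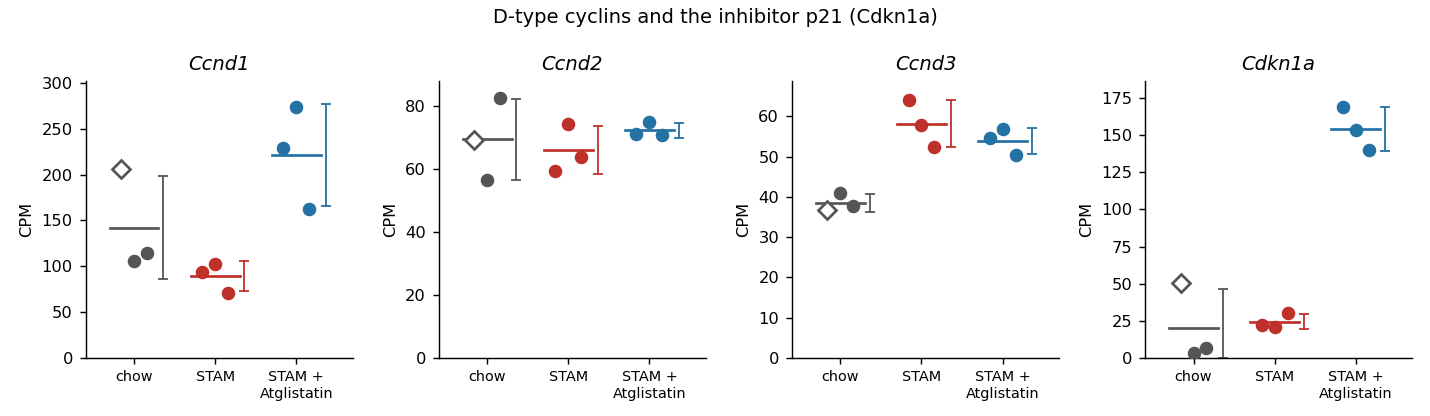
CPM of the 3 D-type cyclins and of Cdkn1a in every library (vertical axes, linear, each gene with its own scale), with group means (lines) and SD of n = 3 (bars, ending at 0 where the SD exceeds the mean); the open diamond is chow replicate 7. Ccnd1 and Cdkn1a were higher in the 3 treated libraries than in the 3 STAM libraries, and Ccnd2 stayed between 56.6 and 82.6 CPM in all 9.

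Markers of dividing cells were measured beside Ccnd1. The 23 proliferation markers summed to 101 to 118 CPM in STAM and 99.9 to 154 with Atglistatin, ranges that overlapped, and to 59.1, 73.7 and 235 CPM in chow. Of the 21 tested, edgeR, DESeq2 and limma-voom called 0 in each comparison with all libraries, and 0, 1 and 2 had an unadjusted p under 0.05 in STAM against chow, treated against untreated STAM and treated STAM against chow. Leaving out chow replicate 7, edgeR called 1, Cdc20, as higher in each comparison with chow. Of 14 targets of WNT and beta-catenin, a list that also holds Ccnd1 and Sox9, Ccnd1 was the 1 called in treated against untreated STAM. In STAM against chow edgeR, DESeq2 and limma-voom called 0 of them, with 3 at an unadjusted p under 0.05, and in treated STAM against chow 0, 0 and 1, with 1 at an unadjusted p under 0.05. Glul, without chow replicate 7, was also called lower in treated STAM against STAM (-0.52 ± 0.12, edgeR adjusted p = 0.0122) and against chow (-0.50 ± 0.13, edgeR adjusted p = 0.021). Against STAM, where chow enters only through the joint fit, its log2 fold change was also -0.52 with that library (edgeR adjusted p = 0.187).

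Markers of other cell types were read beside the members. In STAM against chow edgeR called 4 of 11 hepatocyte markers as lower (Alb, Apoa1, Ttr and Fgb), 1 of 10 recruited macrophage markers as lower (Fabp5), 1 of 6 B cell markers as lower (Ighm), 1 of 9 sinusoidal endothelial markers as higher (Lyve1) and 2 of 6 mitochondrially encoded transcripts as higher (mt-Nd5 and mt-Nd4). The Ighm call did not hold with chow replicate 9 or any STAM replicate left out (edgeR adjusted p 0.075 to 0.184). Nor did that of Lyve1 with chow replicate 7 or 8, any STAM replicate, or treated replicate 4 or 5 left out (0.0503 to 0.156), or that of mt-Nd4 with chow replicate 8 or STAM replicate 2 or 3 left out (0.08 to 0.112). On chow replicates 8 and 9 alone, the macrophage list gave 4 higher and 1 lower, and the hepatocyte list 6 lower. Cela1 was then also called lower (-0.99 ± 0.20, edgeR adjusted p = 0.00304). The 4 higher macrophage genes were Trem2, Gpnmb, Mmp12 and Lgals3, and none of them was called with all libraries. Trem2, Gpnmb and Mmp12 had at most 1 count in chow replicates 8 and 9.

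In treated against untreated STAM, where Ccnd1 rose and Krt23 fell, 1 hepatocyte marker was higher (Alb) and 1 lower (Apob, -0.79 ± 0.14, edgeR adjusted p = 0.00467), and of the mitochondrially encoded transcripts mt-Nd5 was lower (-0.68 ± 0.12, edgeR adjusted p = 0.00455). Of 84 genes tested in the other 11 marker lists, edgeR called 0 there, with 8 at an unadjusted p under 0.05, 0 by DESeq2 and 1 by limma-voom. Summed hepatocyte markers were higher in each treated library than in each STAM library. Alb was the largest part of that sum, averaging 29480 CPM in STAM and 45730 with Atglistatin. The median log2 fold change of the 11 hepatocyte markers was -0.04 there. Summed mitochondrially encoded transcripts were lower, at 84790 to 95680 CPM against 104500 to 117800 (75680 to 95390 in chow). In treated STAM against chow edgeR called 6 of 11 hepatocyte markers as lower (Apoa1, Fgb, Serpina1a, Apob, Alb and Cps1). It also called as lower the macrophage marker Fabp5 (-3.26 ± 0.43, edgeR adjusted p = 0.000122) and the erythroid marker Alas2 (-1.32 ± 0.24, edgeR adjusted p = 0.00294). Cela1, of the pancreas, gut and gallbladder list, was lower too (-1.096 ± 0.22, edgeR adjusted p = 0.00583), and Vpreb3 was called as higher. The call of Alb against chow was lost without chow replicate 8 or 9, STAM replicate 2 or any treated replicate (0.0506 to 0.12), and that of Apob without chow replicate 9 or treated replicate 4 or 5 (0.102 to 0.145). Without chow replicate 7, 8 hepatocyte markers were lower and 3 macrophage markers higher (Trem2, Gpnmb and Mmp12) in treated STAM against chow. Those 3 had at most 1 count in chow replicates 8 and 9. In replicate 7, Gpnmb and Mmp12 read 10.19 and 9.47 CPM, above every treated library. With all libraries none of the 3 was called, and Gpnmb and Mmp12 were negative (-0.89 and -1.44). In treated against untreated STAM, the stellate cell collagens Col1a1 and Col1a2 were called lower without chow replicate 7 (edgeR adjusted p = 0.0366 and 0.0467). Chow enters that comparison only through the joint fit. Their log2 fold changes hardly moved (-1.04 and -0.69 with and without it), and with it the edgeR adjusted p was 0.368 and 0.417. The part of these cell types in the members' differences was not tested.

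**Figure D5:**
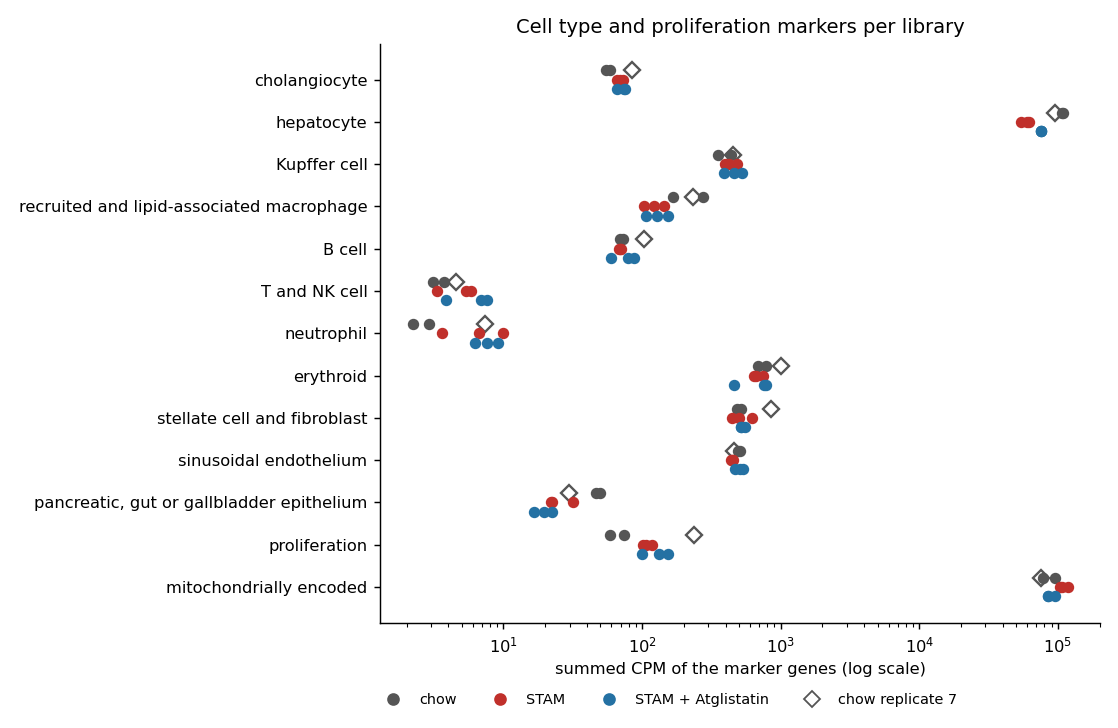
Summed CPM of marker lists for cell types, proliferation and mitochondrially encoded transcripts in each library (horizontal log axis), with chow, STAM and STAM + Atglistatin in grey, red and blue and chow replicate 7 as an open diamond. Chow replicate 7 lay above the other chow libraries for proliferation (235 against 59.1 and 73.7 CPM) and for stellate cells and fibroblasts, and hepatocyte markers were lower in both STAM groups than in chow.

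A wider list of 30 tumour-associated liver genes, which holds all 9 members, was called more often without chow replicate 7 in both comparisons with chow. Of 28 tested, 3 rose and 1 fell in STAM against chow (median 0.55), 2 rose and 1 fell in treated against untreated STAM (median -0.09), and 2 rose and 1 fell in treated STAM against chow (median 0.73). On chow replicates 8 and 9 alone, 11 rose and 1 fell in STAM against chow, and 12 rose and 1 fell in treated STAM against chow. Members made up 3 of the 11 and 4 of the 12. Calls over all tested genes also grew, to 2.68% as higher and 2.86% as lower in STAM, and 2.88% and 2.91% in treated STAM. The list was chosen with earlier results of these data known, so its counts are descriptions only. With all libraries, limma-voom called 10 and 8 genes of this list in these comparisons, and DESeq2 called 4 in each.

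The called genes of that list that are not members were S100a11, Gstp1 and Nqo1. S100a11, a calcium-binding protein, rose in STAM from 13.5 ± 10.3 to 36.9 ± 2.13 CPM (1.42 ± 0.33, edgeR adjusted p = 0.0188). Without chow replicate 7 it was 2.28 ± 0.23 (edgeR adjusted p = 7.7e-07), and treated STAM was then also called higher than chow (1.75 ± 0.23, edgeR adjusted p = 2.39e-05). Gstp1, a glutathione transferase, stood at 18.6 ± 0.473 CPM in chow, 7.75 ± 2.16 in STAM and 7.58 ± 3.45 with Atglistatin, and fell against chow in STAM (-1.26 ± 0.31, edgeR adjusted p = 0.0243) and in treated STAM (-1.29 ± 0.30, edgeR adjusted p = 0.0199). It has close relatives in the genome, so part of its reads may be shared with them. Nqo1, a quinone reductase induced through NRF2, stood at 4.14 ± 2.83, 6.15 ± 1.76 and 17.7 ± 2.51 CPM in chow, STAM and treated STAM, and rose with Atglistatin against STAM (1.53 ± 0.36, edgeR adjusted p = 0.0349) and against chow (2.06 ± 0.37, edgeR adjusted p = 0.00274). Nqo1 without chow replicate 7 was also called higher in STAM against chow (1.28 ± 0.36, edgeR adjusted p = 0.0388). Leaving out chow replicate 8, chow replicate 9, STAM replicate 1 or STAM replicate 2 undid the calls in STAM for S100a11 (0.0618 to 0.086) and Gstp1 (0.0681 to 0.137). Leaving out chow replicate 8 or 9, or treated replicate 4 or 6, undid the Gstp1 call in treated STAM (0.0598 to 0.0863). The Nqo1 call against STAM was lost without STAM replicate 1 or 2 or any treated replicate (0.076 to 0.202).

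Among the 9 members themselves, the patterns over the libraries fell apart. Krt23 was ordered STAM, treated STAM and chow without overlap, Ccnd1 was ordered treated STAM above STAM, and Ly6d separated the STAM and treated libraries from chow replicates 8 and 9. As a description, the tested genes with a mean log2 CPM of at least 3 whose log2 CPM ran most like each member over the 9 libraries were listed by Pearson r. For Ly6d these were Cidec (0.99), Rtn4 (0.98) and Apoa4 (0.97), and for Cd63 they were Mnt (0.96), Cidec (0.96) and Plvap (0.96). Gpc1, Riox2 and Mnt ran most like Krt23 (0.94, 0.94 and 0.93), and Gstm2, Sdc3 and Gstm3 most like Ccnd1 (0.94, 0.93 and 0.93). For Sox9 they were the matrix genes Pcolce (0.96), Bgn (0.93) and Adamts2 (0.91). Each r was the highest of about 7793 genes searched, and the points share groups, library depth and chow replicate 7.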

How the data were processed

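RNA of 9 mouse livers was sequenced by the QuantSeq 3' method. Per the submitters' processing notes reads were aligned with STAR to GRCm38. For the counting, no tool, annotation release, strand setting or rule for multi-mapped reads was found in these notes. The authors deposited raw read counts per gene for each library. Their table also holds their own log2 fold changes and p-values, deposited with no tool named, and their column of mean scaled counts, treated as a score and not used. Sample titles and the design text gave the groups, while a treatment label that goes against them for chow and STAM was set aside.

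The test was edgeR 4.0.16 in R 4.3.3: 7 rRNA entries (0.260 to 0.529% of counts) were left out, filterByExpr kept 12660 genes, and 1 quasi-likelihood fit with TMM scaling covered all 9 libraries, with p-values adjusted by Benjamini-Hochberg across the tested genes and a threshold of 0.05. The labels name separate liver samples but do not say how many animals they came from, so p-values measure the spread between these samples. On simulated counts it recovered 54.2% of genes changed by 1 on the log2 scale and 81.4% of those changed by 2 in STAM against chow, and 52.1% and 80.4% in STAM + Atglistatin against STAM, on 12360 genes. Simulated libraries of a group shared 1 mean per gene, so none departed as a whole as chow replicate 7 did. These shares are therefore not the power for the members. The 15 alternatives for each gene were DESeq2 size factors, library totals, no count filter, DESeq2 1.42.0, limma-voom 3.58.1 with sample weights, a fit to 2 groups, and each of the 9 libraries left out in turn. A minimum absolute log2 fold change of 1 was tried for counts of calls only. Positions come from GENCODE M21, which holds 55141 of the gene IDs, and promoters from RefSeq (GRCm38.p6).

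Named genes are the 9 members, up to 2 called genes per direction from each of 14 gene lists and 13 marker lists, and the 3 genes most like each member. The members and lists were chosen with earlier results of these data known. A library stood apart for a gene at 3 times the next highest, or 3 times below the next lowest, of its group, with at least 10 counts.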

Additional observations from a re-analysis of the deposited data

How the results depend on the processing

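No paired analysis was possible because the groups share no replicate numbers. Over 15 alternatives and 3 comparisons, 364 of 405 member values kept their direction and their side of the threshold, 18 lost the threshold, 14 gained it and 9 changed sign. All 9 changes were in genes not called, here with the far end of each left-out range: Sox9 in STAM against chow (0.073 with limma-voom, 0.30 without chow replicate 7, -0.36 without chow replicate 9) and in STAM + Atglistatin against chow (0.036 without chow replicate 7, -0.63 without chow replicate 9), Tff3 in STAM against chow (0.33 without chow replicate 7, -1.27 without chow replicate 9) and in STAM + Atglistatin against chow (0.19 with limma-voom, 1.07 without chow replicate 7, 0.27 without treated replicate 5, -0.55 without treated replicate 4), and Cd24a in STAM + Atglistatin against STAM (-0.02 without STAM replicate 1, -0.044 without treated replicate 6, 0.40 without treated replicate 5). The causes were not tested. Of 615 values of other named genes, in comparisons where they were called, 532 kept the call and 83 lost it.

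In STAM against chow, 2 members were called, 1 with library totals or with only the 2 groups fitted, 5 with no count filter, and 1 to 3 when a library was left out. The 499 genes called became 230 past a minimum absolute log2 fold change of 1 and 291 to 724 when a library was left out. In STAM + Atglistatin against STAM, 2 members became 1 with library totals and 1 to 2 when a library was left out. The 226 genes became 392 with no count filter, 123 past a minimum absolute log2 fold change of 1, and 131 to 332 when a library was left out. In STAM + Atglistatin against chow, 1 member became 4 with no count filter or with limma-voom and 0 to 4 when a library was left out, with 4 without chow replicate 7 and 0 without chow replicate 8 or treated replicate 4 or 5. The 516 genes became 256 past a minimum absolute log2 fold change of 1 and 309 to 757 when a library was left out. The fit with no count filter added genes of a few counts, and its small adjusted p-values are not read as strength. Afp and Gpc3 rest on at most 67 and 18 counts per library, which limits the precision of their values.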
